A study of Mus musculus with 15 samples.

Results

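The 2 mature arms of the miR-142 hairpin, mmu-miR-142-3p and mmu-miR-142-5p on the array, were followed in mouse liver grafts over the course of graft rejection and acceptance. They were taken by name from the 567 mouse miRNAs on the array. Both were among the 103 miRNAs that were well above background on all 3 arrays of at least 1 group and were tested. MiR-142-3p was detected on 15 of 15 arrays. MiR-142-5p was detected on 13, and it passed this filter through the allografts of days 5, 8 and 14.

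Each array carried the RNA of 1 liver graft from a male mouse, in 5 groups of 3 mice. The 4 allograft groups were livers of B10.BR (H2-Kk) donors placed in B10.D2 (H2-Kd) recipients, removed on day 5, 8, 14 or 100 post-transplantation, and per the study no immunosuppressant was given. The fifth group were syngeneic grafts removed on day 5, the only control day, so the later allografts had no control of their own age. The labels give the allogeneic strain pair for every array, the syngeneic ones included, so those 3 arrays were identified by their titles and their strain is not named. The ages of the mice are not stated, and nothing in the labels says that grafts were pooled.

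The miR-142 hairpin is transcribed in cells of the blood lineage, from progenitors to lymphocytes and myeloid cells, and hardly at all in hepatocytes. Its precursor is cut to a short duplex, and either strand can be loaded into an Argonaute protein, which it then guides to messenger RNAs that match its seed near the 5′ end. Because the 2 strands carry different seeds, they address different messengers although they come from 1 transcript. In liver tissue the signal of such a hairpin is generally read as a trace of blood cells in the sample. Whole graft tissue was measured, so more leukocytes in a graft and more of the miRNA per leukocyte cannot be told apart.

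The mature sequences are shown because the whole comparison rests on these 2 strands of 1 hairpin. They are RefSeq entries of the build GRCm38.p6, which names them miR-142a-5p and miR-142a-3p, and they were matched to the array by name. The hairpin lies on the plus strand at chr11:87756864-87756927, the 5p arm at chr11:87756867-87756887 and the 3p arm at chr11:87756903-87756925. It stands between Supt4a, which ends 13241 bases before it, and Tspoap1, which starts 1267 bases after it, and RefSeq lists Mir142b over the same bases. In the mature strands the seed (bases 2 to 8) is in capitals:
miR-142-5p: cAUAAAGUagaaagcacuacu
miR-142-3p: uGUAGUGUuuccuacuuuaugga
In the hairpin both arms are in capitals, with the loop between them in lower case:
hairpin: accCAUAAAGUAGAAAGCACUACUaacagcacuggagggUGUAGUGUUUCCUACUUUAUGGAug
The longest run of Watson-Crick pairs between the arms, in capitals below, joins bases 1 to 10 of the 5p strand to bases 12 to 21 of the 3p strand, and so contains the 5p seed and leaves out the 3p seed:
miR-142-5p: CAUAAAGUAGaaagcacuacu
miR-142-3p: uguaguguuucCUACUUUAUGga
The strands are 21 and 23 bases long with 33.3% and 34.8% G and C. Among 1679 mature mouse miRNAs in the RefSeq table, each seed occurred in 1, the arm itself.

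Each arm was measured by 2 probes of 10 spots each. The signal of an arm is the sum of the probes' mean spot intensities, and its level is the log2 of this signal after scaling. Scaling divided each array by a percentile (the 75th) of the 52 miRNAs that all 15 arrays detected, which lay between 395 and 616 units for syngeneic and between 457 and 1018 for allograft arrays. Levels under a floor of -5.21 on the log2 scale were set to it. Day 8, day 14 and syngeneic replicates 1 and 2 shared slide 1, and day 5, day 100 and syngeneic replicate 3 shared slide 2. No spot was saturated. Replicate 1 of day 100 was the noisiest array (additive error 13.1 units, elsewhere at most 3.66). The hepatocyte marker miR-122 was detected on every array.

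MiR-142-3p was lowest in the syngeneic grafts and highest in the allografts of day 5. Its scaled log2 level in the syngeneic grafts was -1.04, 0.54 and -0.35 in replicates 1, 2 and 3. In the allografts of day 5 it was 1.14, 1.18 and 2.77. Every allograft of that day exceeded every syngeneic graft, and replicate 3 stood far above the other allografts of that day. On day 8 the level was 0.35, 0.18 and 0.56, and on day 14 it was 1.05, 1.44 and 0.65. The arrays of day 8 lay close together, below every array of day 5 and of day 14, and overlapped with the syngeneic grafts, whose replicate 2 lay among them. On day 100 the level was -0.34, -0.0025 and -0.062, inside the syngeneic range and below every array of the other allograft days.

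The group means of miR-142-3p were -0.29 ± 0.79 (SD, n = 3) in the syngeneic grafts, and 1.70 ± 0.93 (day 5), 0.37 ± 0.19 (day 8), 1.05 ± 0.40 (day 14) and -0.13 ± 0.18 (day 100) in the allografts. The spread was widest in the syngeneic grafts and on day 5. Before scaling, the summed intensity was 250, 574 and 482 units in the syngeneic grafts and 1956, 2146 and 3117 on day 5. Later it was 917, 881 and 1225 (day 8), 1699, 2039 and 1594 (day 14), and 792, 515 and 741 (day 100). The order of the groups was therefore already in the unscaled intensities. Replicate 3 of day 5 was highest there too, while the percentile used to scale it was the lowest of the allografts, 457 units against 886 and 949 on the other arrays of that day, so that scaling widened the gap.

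MiR-142-5p followed a similar course at intensities near the background. Its scaled log2 level in the syngeneic grafts was -5.21 (the floor, not detected), -3.47 and -4.35. The allografts had -2.82, -2.94 and -1.60 (day 5), -3.76, -3.86 and -3.72 (day 8), and -2.47, -2.28 and -2.33 (day 14). Days 5 and 14 lay above every syngeneic array, whereas day 8 fell inside the syngeneic range. On day 100 the level was -5.21 (the floor, not detected), -3.79 and -3.90. The undetected array of day 100 was the noisier replicate 1, where the summed intensity of the arm was -14.3 units, below the local background.

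The group means of miR-142-5p were -4.34 ± 0.87 (SD, n = 3) in the syngeneic grafts, and -2.46 ± 0.74 (day 5), -3.78 ± 0.07 (day 8), -2.36 ± 0.10 (day 14) and -4.30 ± 0.79 (day 100) in the allografts. Detection was on 2 of 3 arrays in the syngeneic grafts and on day 100, and a value at the floor makes differences from these groups depend on where the floor is set. The summed intensity was 10.9, 35.8 and 30.2 units in the syngeneic grafts, and 125.5, 123 and 151 (day 5), 52.9, 53.7 and 62.8 (day 8), 148.3, 154 and 202 (day 14), and -14.3, 37.2 and 51.9 (day 100) in the allografts. The levels of the arms are not set against each other, because they come from different probes.

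**Figure D1:**
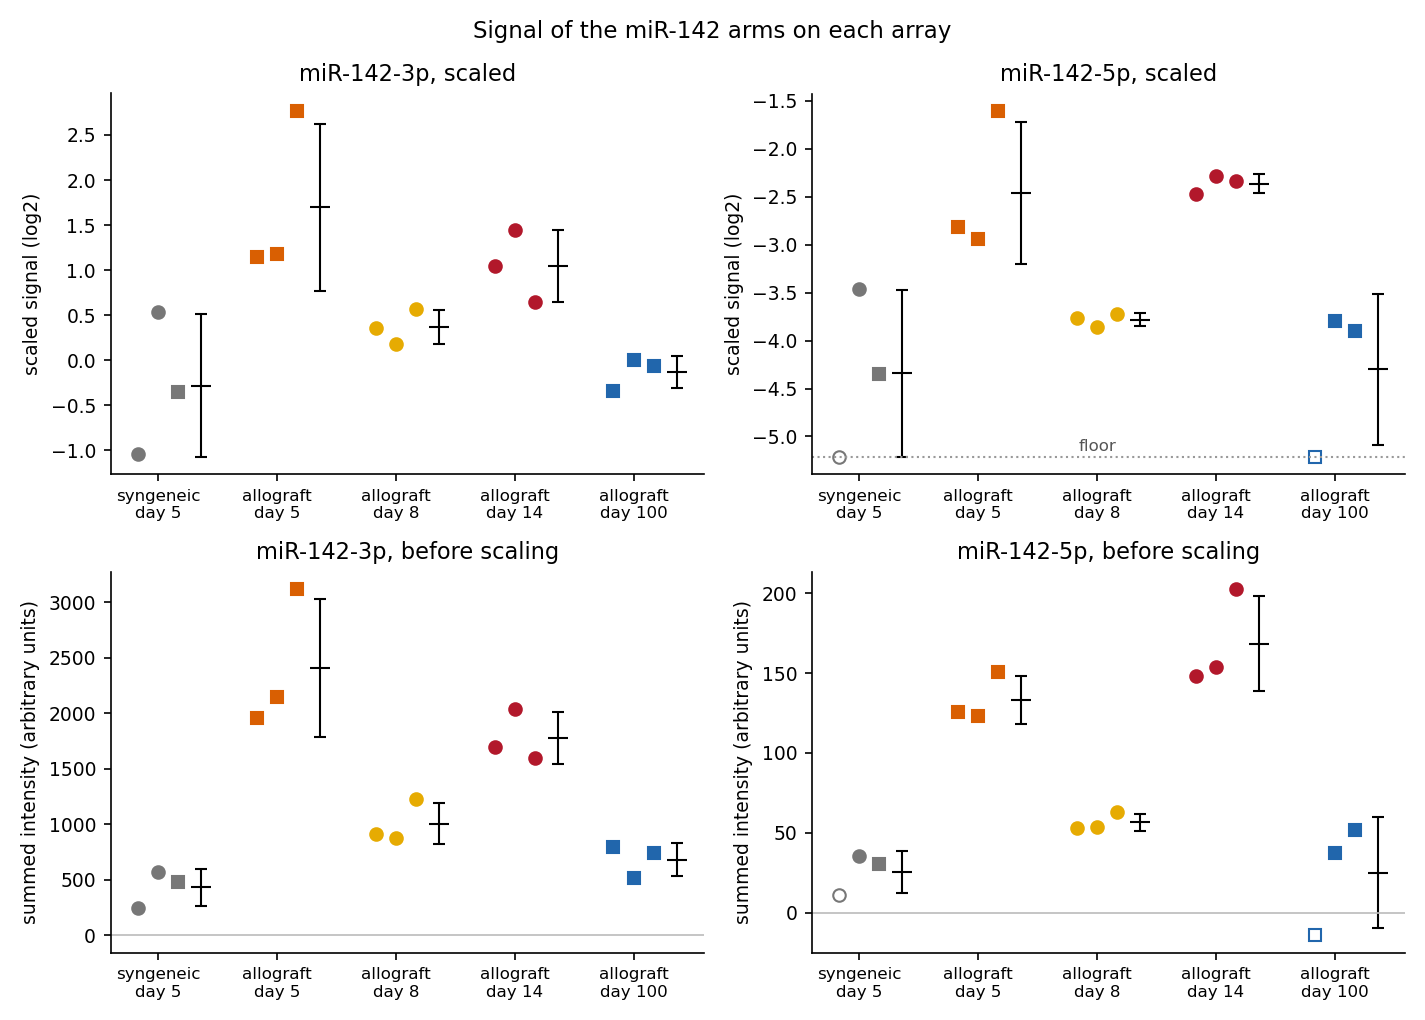
Signal of miR-142-3p (left) and miR-142-5p (right) on each of the 15 arrays by group, as the scaled level on the log2 scale (top) and as summed intensity before scaling (bottom). Circles are arrays of slide 1 and squares of slide 2, open symbols mark arrays where the arm was not detected, bars give the mean ± SD of 3 arrays, and the dotted line is the floor. For both arms days 5 and 14 lie above every syngeneic array and day 8 overlaps with the syngeneic arrays on the scaled log2 level.

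Over the 5 groups, a moderated F test in limma gave an adjusted p of 0.0078 for miR-142-3p and 0.0040 for miR-142-5p (Benjamini-Hochberg over 103 miRNAs), in a set where 64.1% of the tested miRNAs passed. In order of their means, the groups of miR-142-3p ran from day 5 through day 14, day 8 and day 100 to the syngeneic grafts, and those of miR-142-5p from day 14 through day 5, day 8 and day 100 to the syngeneic grafts. By these scaled means the arms differed only in which of days 5 and 14 came first. For miR-142-5p, however, day 100 and the syngeneic grafts were only 0.04 apart, with 1 array at the floor in each group. Their order was reversed with a lower floor (-0.51) and in the mean summed intensity, 25.0 units on day 100 and 25.6 in the syngeneic grafts. For neither arm did these 2 days differ beyond their spread: day 14 minus day 5 was -0.65 for miR-142-3p (95% interval -1.58 to 0.28, limma adjusted p = 0.32) and 0.09 for miR-142-5p (interval -0.90 to 1.08, adjusted p = 0.93), with overlapping arrays and 12.6% of all tested miRNAs called. The next neighbors, day 8 and day 100, differed by 0.50 (interval -0.43 to 1.43, adjusted p = 0.41) and 0.52 (interval -0.47 to 1.51, adjusted p = 0.42), where 19.4% of all tested miRNAs were called. The intervals are wide, so these values do not show that the days were alike.

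Early after transplantation, both arms were higher in the allografts of day 5 than in the syngeneic grafts of the same day, the only comparison here at a matched time. MiR-142-3p was 3.95-fold higher (log2 fold change 1.98, standard error 0.43, 95% interval 1.05 to 2.91, Benjamini-Hochberg adjusted p = 0.0071 in limma). MiR-142-5p was 3.70-fold higher (log2 fold change 1.89, standard error 0.46, interval 0.90 to 2.88, adjusted p = 0.0089). Both arms passed the threshold and did not overlap with the syngeneic arrays, against 18.4% of all tested miRNAs called higher and 21.4% higher without overlap. By log2 fold change they ranked 2 and 3 of the 103 tested miRNAs, where the median was 0.12.

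The allografts of day 5 shared their slide with 1 syngeneic array only. With the slide as a block the log2 fold change was 2.05 for miR-142-3p and 1.90 for miR-142-5p, at adjusted p-values of 0.091 and 0.12, and within slide 2 the values were the same at 0.17 and 0.20, so the size held and the call did not. Without replicate 3 of day 5, the high array, both arms were still called (1.45, adjusted p = 0.020, and 1.46, adjusted p = 0.042).

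On day 8 neither arm differed from the syngeneic grafts beyond the spread, at a time when 23.3% of the tested miRNAs were called higher. The log2 fold change was 0.65 for miR-142-3p (standard error 0.43, interval -0.28 to 1.58, limma adjusted p = 0.28) and 0.56 for miR-142-5p (standard error 0.46, interval -0.43 to 1.55, adjusted p = 0.39). The arrays overlapped for both arms, since syngeneic replicate 2 lay in the range of day 8 for miR-142-3p and above it for miR-142-5p. The values rested on single syngeneic arrays: without replicate 1 they were 0.27 and 0.13, and without replicate 2 they were 1.06 and 1.00, not called either way (limma adjusted p = 0.081 to 0.85). Within slide 1, which held all arrays of day 8 and 2 syngeneic arrays, the values were 0.62 (adjusted p = 0.25) and 0.56 (adjusted p = 0.28). Without scaling between arrays both arms were called higher on day 8 (1.28, adjusted p = 0.0064, and 1.05, adjusted p = 0.024), but then the median log2 fold change of all tested miRNAs was 0.69, against 0.14 with scaling.

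From day 5 to day 8 of the allografts the level of both arms was lower on every array, by -1.33 on the log2 scale for miR-142-3p (interval -2.26 to -0.40) and by -1.32 for miR-142-5p (interval -2.31 to -0.34). After adjustment over the 103 miRNAs neither difference passed the threshold (limma, adjusted p = 0.11 and 0.12). Of all tested miRNAs 1.94% did pass between these days, although 21.4% lay lower without overlap. Counted from the lowest of the 103 differences, the arms ranked 4 and 5. Days 5 and 8 did not share a slide. Blocking on slide gave differences of -1.43 (adjusted p = 0.24) and -1.34 (adjusted p = 0.30). Without replicate 3 of day 5 they were smaller, -0.79 (adjusted p = 0.29) and -0.90 (adjusted p = 0.32). Without scaling they were -1.24 and -1.23 and did pass (adjusted p = 0.037 and 0.038).

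On day 14 the arms were again above the syngeneic grafts. MiR-142-3p was 2.52-fold higher (log2 fold change 1.33, standard error 0.43, interval 0.40 to 2.26, limma adjusted p = 0.022) and miR-142-5p 3.95-fold higher (log2 fold change 1.98, standard error 0.46, interval 0.99 to 2.97, adjusted p = 0.0033). Both were called without overlap, as were many others: 27.2% of the tested miRNAs were called higher on this day and 33% were higher without overlap. The arms ranked 11 and 5 of 103. Within slide 1 the values were 1.30 (adjusted p = 0.039) and 1.98 (adjusted p = 0.0068), and they were 1.30 (adjusted p = 0.053) and 1.98 (adjusted p = 0.011) when slide entered the fit as a block.

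The call of miR-142-3p on day 14 rested on single arrays. It was lost without syngeneic replicate 1 (0.95, adjusted p = 0.093), syngeneic replicate 3 (1.30, adjusted p = 0.053), replicate 1 of day 14 (1.33, adjusted p = 0.061) or replicate 2 of day 14 (1.13, adjusted p = 0.084). That of miR-142-5p was kept without any 1 array, at log2 fold changes of 1.55 to 2.42.

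Between day 8 and day 14, which lay on the same slide, the arms were higher on every array of day 14, by 0.68 for miR-142-3p (interval -0.25 to 1.61, limma adjusted p = 0.43) and by 1.42 for miR-142-5p (interval 0.43 to 2.41, adjusted p = 0.091). Neither passed the threshold, where 5.83% of the tested miRNAs did and 19.4% lay higher without overlap. The difference of miR-142-5p ranked 2 of 103 from the highest and that of miR-142-3p 7. For miR-142-5p the adjusted p lay close to the threshold and passed it under some settings, such as a fit of these 2 groups alone (0.00031), the brightest probe (0.038) and no scaling (0.012), and also without syngeneic replicate 2 (0.0495) or without replicate 3 of day 5 (0.04997), where the difference was the same 1.42.

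By day 100 neither arm differed from the syngeneic grafts beyond the spread. The log2 fold change was 0.15 for miR-142-3p (interval -0.78 to 1.08, limma adjusted p = 0.84) and 0.04 for miR-142-5p (interval -0.95 to 1.03, adjusted p = 0.97), while 31.1% of the tested miRNAs were called on this day. The direction of these small differences was not fixed by the data. Without syngeneic replicate 1 they were -0.23 and -0.39, and miR-142-5p was also at -0.21 and -0.16 without replicate 2 or 3 of day 100. Without syngeneic replicate 2 they were 0.56 and 0.48, and without replicate 1 of day 100 they were 0.25 and 0.50.

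Compared with day 100, both arms were higher on day 5 and on day 14. On day 5 the log2 difference was 1.83 for miR-142-3p (3.56-fold, interval 0.90 to 2.76, limma adjusted p = 0.0090) and 1.84 for miR-142-5p (3.59-fold, interval 0.85 to 2.83, adjusted p = 0.011). These were the second highest and the highest of the 103 differences, with 21.4% of the tested miRNAs called higher and 33% higher without overlap. Both days lay whole on slide 2, where the fit of that slide alone gave adjusted p-values of 0.048 and 0.059. Without replicate 3 of day 5, miR-142-5p was no longer called (1.42, adjusted p = 0.053).

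On day 14 the difference from day 100 was 1.18 for miR-142-3p (2.27-fold, interval 0.25 to 2.11, limma adjusted p = 0.037) and 1.94 for miR-142-5p (3.83-fold, interval 0.95 to 2.93, adjusted p = 0.0053). Here 33% of the tested miRNAs were called higher and 39.8% were higher without overlap. The days did not share a slide, and neither arm was called once slide was blocked (1.08, adjusted p = 0.41, and 1.92, adjusted p = 0.15). For miR-142-3p the call was also lost without replicate 1 (1.18, adjusted p = 0.086) or 2 (0.98, adjusted p = 0.12) of day 14, or without replicate 1 (1.08, adjusted p = 0.095), 2 (1.25, adjusted p = 0.058) or 3 (1.22, adjusted p = 0.061) of day 100. All comparisons with the syngeneic grafts share the same 3 control arrays, and those with day 100 the same 3 arrays of that day.

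**Figure D2:**
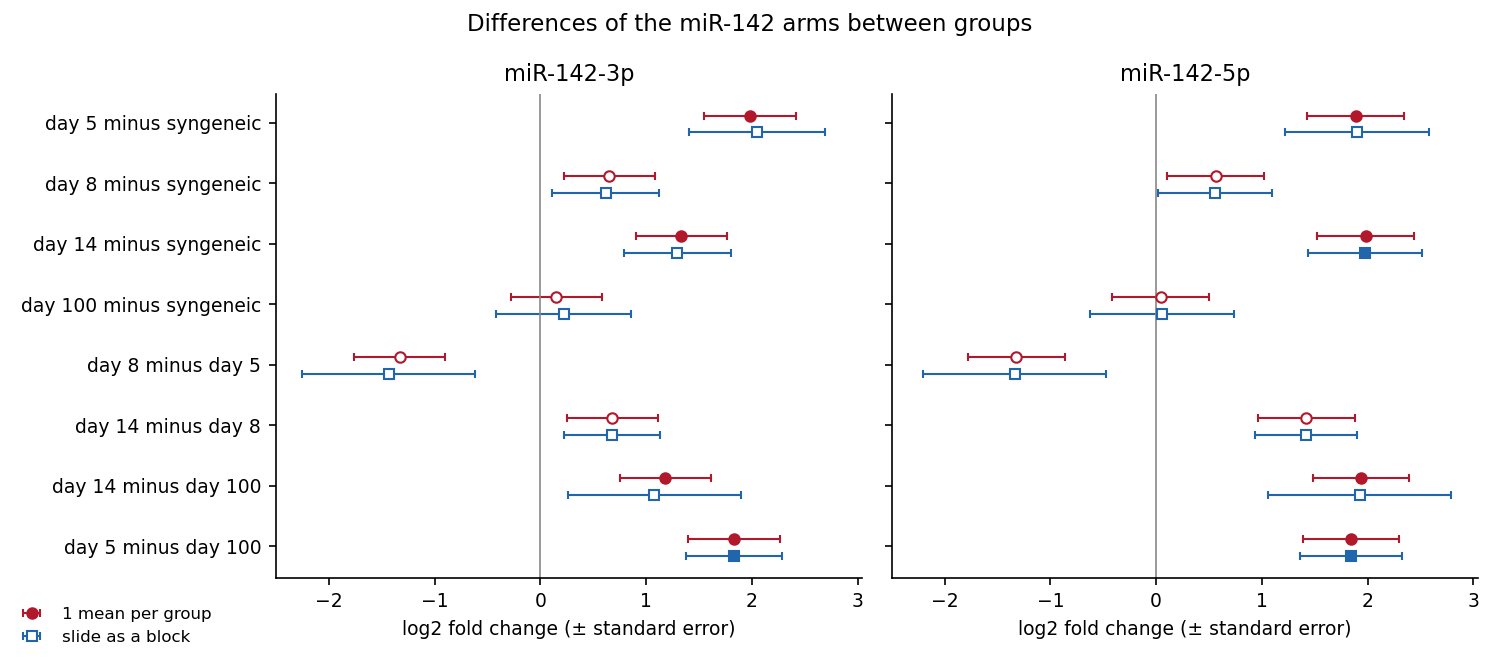
Log2 fold change of miR-142-3p (left) and miR-142-5p (right) in 8 comparisons between groups, with its standard error, from the fit of 1 mean per group (circles) and with the slide as a block (squares). Filled symbols have a Benjamini-Hochberg adjusted p under 0.05. The block moved no value by more than about 0.10, while it widened the error of the comparisons between slides.

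The arms moved together from array to array. Over the 15 arrays their levels had a Pearson r of 0.917 and a Spearman rho of 0.951 (permutation p = 1e-05 each, the smallest that 100000 permutations can give). Without the 2 arrays farthest from the median of miR-142-3p, syngeneic replicate 1 and replicate 3 of day 5, r was 0.884 (permutation p = 6e-05). Over the 13 arrays where miR-142-5p was detected, r was 0.904. Within groups the arms also varied together: after the group means were taken out, r was 0.84 and rho 0.857 (exact permutation within groups, p = 0.0051 for r, 7776 orders). The arms of an array share its labeling and its scaling, which are part of these correlations.

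The difference between the arms on the same array is free of the scaling, apart from values at the floor. As log2 miR-142-3p minus log2 miR-142-5p, it was 4.17 (with the 5p arm not detected), 4.004 and 3.996 in the syngeneic grafts, 3.96, 4.12 and 4.37 on day 5, and 4.12, 4.04 and 4.28 on day 8. The allografts of day 14 had 3.52, 3.73 and 2.98, and those of day 100 had 4.87 (with the 5p arm not detected), 3.79 and 3.84. Each array of day 14 lay below all 12 other arrays. The absolute size of this difference depends on the probes and has no meaning as a ratio of molecules.

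Day 14 was therefore the group in which miR-142-5p stood higher relative to miR-142-3p. The change in 3p minus 5p on the log2 scale was -0.65 against the syngeneic grafts, -0.74 against day 8 and -0.76 against day 100. Each of these 3 changes had an exact two-sided permutation p of 0.1, the smallest possible for 3 arrays against 3 (0.27 after Benjamini-Hochberg adjustment over 8 comparisons). The last of these shrank to -0.41 without replicate 1 of day 100, where the 5p arm was at the floor. In the other 5 comparisons the change lay between -0.01 and 0.11 (exact p of 0.5 to 1), but without that array day 100 minus the syngeneic grafts was -0.24 and day 5 minus day 100 was 0.34. Over all 5 groups, an exact permutation test of the F statistic (1401400 assignments) gave p = 0.064. The same exact test gave p = 0.013 without the 2 arrays where miR-142-5p was not detected, a choice made after the data were seen, and p = 0.0060, 0.035 and 0.046 without replicate 1, 2 or 3 of day 100. Without replicate 3 of day 14, the array with the smallest difference, the exact p was 0.41. Over the processing alternatives the p ran from 0.00018 with a normexp background correction to 0.64 with quantile normalization. With normexp, miR-142-5p was instead the arm that changed less from the syngeneic grafts to day 14. Normexp adds an offset of 50 to each spot, and the summed intensities of miR-142-5p reach 202 units at most. Such an offset by itself makes the log2 changes of a dim arm smaller, so the p of 0.00018 does not speak for the pattern of day 14. By single probes, day 14 lay below the mean of the other arrays with a detected 5p arm by 0.56 to 0.69 in each of the 4 pairs of a 3p and a 5p probe, and in the pairs with the dimmer 3p probe the arrays overlapped.

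**Figure D3:**
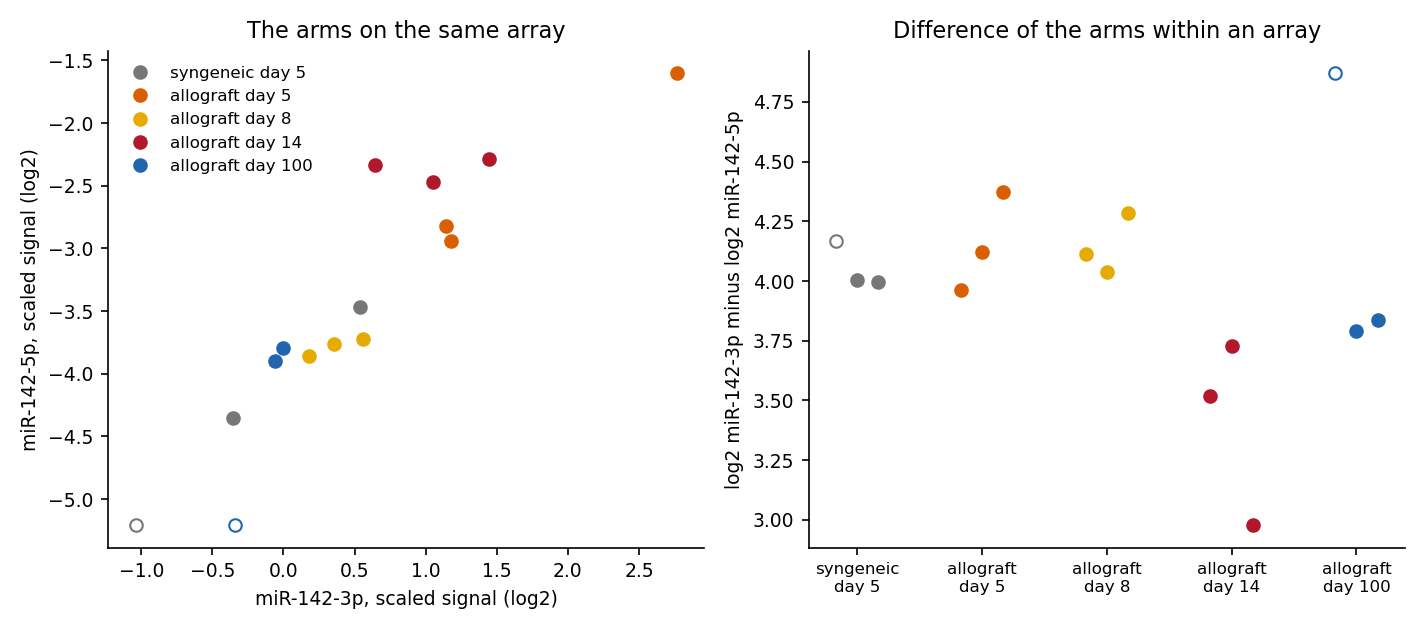
Left, scaled level of miR-142-5p against that of miR-142-3p on each of the 15 arrays on log2 scales, colored by group. Right, the difference of the arms on each array by group. Open symbols are the 2 arrays where miR-142-5p was not detected. The arms rise and fall together (r = 0.917), and the 3 arrays of day 14 have the smallest differences, 2.98 to 3.73.

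The 2 probes of each arm gave like differences. For miR-142-3p the log2 difference of day 5 from the syngeneic grafts was 1.98 with each probe, and that of day 14 was 1.33 with each. Every spot used of both 3p probes was well above background, and the median coefficient of variation between spots was 3.96% and 4.26%. For miR-142-5p the probes gave 1.49 and 1.52 on day 5 and 1.63 and 1.57 on day 14, less than the 1.89 and 1.98 of their sum because single probes reach the floor sooner. Of the spots of its probes, 82.4% and 81.8% were well above background, with median coefficients of variation of 11.5% and 12.1%. The smaller signal of the 5p arm was thus also the less precise one between spots.

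Other miRNAs varied over the 15 arrays much as the arms did. By Pearson r, given as a description, miR-301a (0.864) and miR-140 (0.860) came first for miR-142-3p, followed by miR-20b (0.768), miR-20a (0.706) and miR-223 (0.701). For miR-142-5p, miR-301a (0.874) and miR-140 (0.865) came first again, followed by miR-338-3p (0.793), miR-106b (0.771) and miR-223 (0.752). The arms were more like each other (0.917) than like any of these. The mean of miR-301a was also lower on day 8 than on days 5 and 14, with group means of -4.28 in the syngeneic grafts and -3.38, -4.35, -3.50 and -5.10 in the allografts of days 5, 8, 14 and 100. Neither difference was called (day 8 minus day 5 -0.98, limma adjusted p = 0.12, and day 14 minus day 8 0.85, adjusted p = 0.15). It was detected on 11 of the 15 arrays, with means near the floor. Since miR-301a was picked for its correlation with the arms, a like course adds no separate support.

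A list of other miRNAs of blood cells was set beside the arms. As for the arms, more leukocytes and more of a miRNA per cell cannot be told apart. The list held miR-223 of myeloid cells, miR-155 of activated lymphocytes and macrophages, miR-146a, a target of NF-kB, miR-342-3p, miR-150 of mature lymphocytes, and miR-181a and miR-181b of lymphoid cells. Of these 7, 4 were tested. MiR-150 and miR-181b were detected on 0 of the 15 arrays and miR-181a on 2, so the defining marker of mature lymphocytes on the list was not above background in any graft. MiR-155 was detected on 0 of the 3 syngeneic arrays and miR-342-3p on 1, so both passed the filter through the allografts where they were high, and their differences from the syngeneic grafts depend on the floor. The 4 tested members were called higher than in the syngeneic grafts on days 5, 8 and 14, and on day 100 3 of the 4 were, all but miR-155, which was detected on 1 array there. Of all 103 tested miRNAs, 19 (day 5), 24 (day 8), 28 (day 14) and 17 (day 100) were called higher. All 4 members were still called on days 8 and 14 once slide was blocked. Then 2 of 4 were called on day 5, where miR-146a (0.93, limma adjusted p = 0.094) and miR-155 (adjusted p = 0.094) were lost, and 1 of 4 on day 100. The counts called higher over all tested miRNAs were 2, 32, 32 and 2 in that fit on days 5, 8, 14 and 100.

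On day 8 the group means of the arms were lower than on day 5, and those of the 4 tested miRNAs of the list were higher. Of these differences only that of miR-342-3p was called. From day 5 to day 8, the 4 leukocyte miRNAs had positive differences, 0.13 for miR-223 (limma adjusted p = 0.78), 0.61 for miR-155 (adjusted p = 0.20), 0.34 for miR-146a (adjusted p = 0.30) and 1.04 for miR-342-3p (adjusted p = 0.016), while both arms of miR-142 had negative ones. These days shared no slide, and blocking on slide left none of the 4 called, miR-342-3p included (limma adjusted p = 0.084). The summed scaled signal of the list was 0.914 to 1.29 on day 5 and 1.25 to 1.38 on day 8, compared with 0.320 to 0.450 in the syngeneic grafts. Taken on the same array, the level of each arm relative to each of the 4 miRNAs was lower on all 3 arrays of day 8 than on all 3 of day 5, with changes of -2.37 to -1.45 on the log2 scale. By their own level, 21.4% of all tested miRNAs lay lower on day 8 without overlap. The share that did so relative to these 4 miRNAs was not computed, so the separation cannot be called particular to the arms. In this comparison of 2 days on 2 slides, day and slide cannot be told apart. Each of these 8 comparisons, added after the data were seen, had an exact two-sided permutation p of 0.1, the smallest possible with 3 arrays a group (0.1 after adjustment over the 8). They are not independent, since they share the arrays and the arms, and each contains the arm's own lower level on day 8.

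On day 100 the arms were at 0.15 and 0.04 and not called, where miR-223 (0.80, limma adjusted p = 0.025), miR-146a (0.91, adjusted p = 0.011) and miR-342-3p (1.67, adjusted p = 8.5e-05) were still called higher. With the slide as a block only miR-342-3p was (1.36, limma adjusted p = 0.0078), while miR-223 was at 0.31 (adjusted p = 0.61) and miR-146a at 0.79 (adjusted p = 0.12). The difference between the arms and these miRNAs was not tested on that day. Day 100 and 2 of the 3 syngeneic arrays were on different slides.

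**Figure D4:**
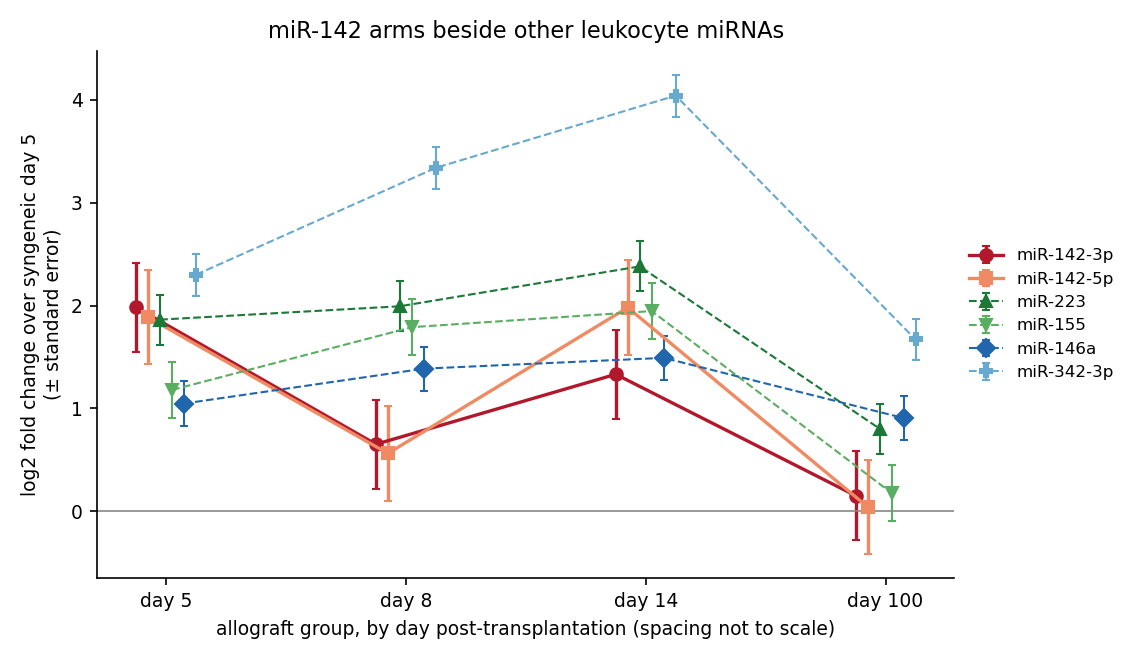
Log2 fold change over the syngeneic grafts of day 5, with its standard error, for the miR-142 arms (solid lines) and the 4 tested leukocyte miRNAs (dashed lines) in the 4 allograft groups. The spacing of the days is not to scale. Both arms are at 0.65 and 0.56 on day 8, when the 4 other miRNAs lie between 1.39 and 3.34. MiR-155 was at the floor on all 3 syngeneic arrays and miR-342-3p on 2.

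Of the markers of other cells of the graft, none was called between days 5 and 8 by limma. The erythroid miR-144 was detected on 3 of 3 arrays of the syngeneic grafts, where the arms were lowest, and of days 5 and 14. It was detected on 0 of 3 on day 8 and on 1 of 3 on day 100. Over the syngeneic grafts it was called lower on day 8 (log2 fold change -1.57, limma adjusted p = 0.018). On day 100 it was at -1.26 (adjusted p = 0.056), and on days 5 and 14 at 0.15 and 0.012 (adjusted p = 0.85 and 0.99). Its neighbor miR-451, the defining erythroid marker, had log2 fold changes over the syngeneic grafts of 0.99, 1.21 and 1.55 on days 5, 8 and 14 (limma adjusted p = 0.049, 0.013 and 0.0023) and 0.59 on day 100 (adjusted p = 0.17), and miR-486 was not tested. The summed signal of the 3 erythroid miRNAs was 0.624 to 1.24 in the syngeneic grafts, and 1.12 to 2.02 (day 5), 1.59 to 1.64 (day 8), 1.84 to 2.49 (day 14) and 0.712 to 1.47 (day 100) in the allografts. Of the hepatocyte miRNAs, miR-122, miR-192, miR-194 and miR-148a, 3 of 4 were called lower on day 5, 4 of 4 on days 8 and 14 and 2 of 4 on day 100, with summed signals of 30.1 to 35.7 in the syngeneic grafts and 13.4 to 17.1 on day 14. Among all 103 tested miRNAs, 26, 42, 47 and 32 were called on days 5, 8, 14 and 100. Of these, 19, 24, 28 and 17 were higher and the rest lower. After blocking on slide, 2 of the 4 hepatocyte miRNAs were called lower on days 5 and 8. All 4 of 4 were on day 14, and 3 of 4 on day 100. Over all tested miRNAs 5, 46, 49 and 16 were then called, of which 2, 32, 32 and 2 were higher. The endothelial miR-126-3p and the stromal miR-214, the tested members of their lists, were called on no day against the syngeneic grafts (0 of 4 comparisons each), although with the slide as a block miR-126-3p was called higher on days 8 and 14 (0.42 and 0.34, limma adjusted p = 0.011 and 0.028). The defining stromal marker miR-143 was detected on 5 arrays and not tested. The part of these cells in the differences of the miR-142 arms was not tested.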

How the data were processed

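The authors deposited the spot intensities of each array on the linear scale, background-subtracted by Agilent's scanner software (Feature Extraction 9.5.1.1) and not normalized between arrays, with flags for spots well above background. A table of log2 values that the authors deposited was not used here. Control and outlier spots were left out (19 of 300 spots of miR-142-3p and 4 of 300 of miR-142-5p). A probe was called detected on an array if no less than 0.5 of the spots kept passed the background flag. As floor served 0.0270, the lowest detected scaled signal of an array in the median, and 8.28% of the tested values lay at it. The 10 viral miRNAs stayed untested.

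With limma 3.58.1 (R 4.3.3), all 15 arrays entered a single fit of 5 group means. P-values were adjusted by Benjamini-Hochberg over 103 miRNAs, separately for each comparison, and 0.05 was the threshold. Adjusted p-values of single miRNAs are all from limma. The study's methods name Student's t-test, which was an alternative ("the methods' t-test"), here with the same Benjamini-Hochberg adjustment. The remaining steps ran in Python 3.11.15 (scipy 1.17.1, pandas 2.3.3, numpy 2.4.6). On simulated data, of 30 miRNAs changed 3-fold among 103, the fit recovered 27, 30, 29 and 27 for days 5, 8, 14 and 100 against the syngeneic grafts, with 2, 0, 1 and 2 false calls. The simulated arrays had no slide effect and no floor. The standard errors of the arms (0.43 and 0.46) lay above the median of all tested miRNAs (0.24), so these rates do not describe the arms.

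The members and the marker lists were chosen with earlier results of these data known. Named were the 2 arms, the members of the lists and, for each arm, the 5 tested miRNAs with the highest Pearson correlation. The comparisons of day 14 with day 5 and day 8 with day 100, the arms set against leukocyte miRNAs, and values without undetected arrays were added after the data were seen. No array of a group was a copy of another. The labels number 3 replicates per group, the study states 3 mice per time point, and this number limits the precision.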

Additional observations from a re-analysis of the deposited data

Results flagged for a closer look

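Days 5 and 14 of the allografts differed from day 100, by a limma test of the difference between the days, in which the shared syngeneic grafts cancel. The other comparisons between allograft days were not called for either arm. For miR-142-3p, day 14 exceeded day 100 by 1.18 and day 5 exceeded it by 1.83 on the log2 scale. For miR-142-5p, the differences were 1.94 for day 14 and 1.84 for day 5. All 3 arrays of the earlier day lay above all 3 of day 100 in each case, as they did for 39.8% (day 14) and 33% (day 5) of the tested miRNAs. Days 14 and 100 did not share a slide. With the slide as a block neither arm was called between them (limma adjusted p = 0.41 and 0.15). Days 5 and 100 shared slide 2, and with the block both arms were still called between them (limma adjusted p = 0.010 and 0.013).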

How the results depend on the processing

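Each of the 8 calls of the arms was lost under at least 1 alternative, while none of them changed direction. Over all alternatives of the 16 comparisons of single arms, 472 of 532 values kept their direction and their side of the threshold. The cause of each change below was not tested unless one is named.

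Slide as a block ended the calls of miR-142-3p on day 5 (2.05) and day 14 (1.30) and between days 14 and 100 (1.08), and those of miR-142-5p on day 5 (1.90) and between days 14 and 100 (1.92). Within slide 2, which leaves fewer arrays, day 5 against the syngeneic grafts was lost for both arms (2.05 and 1.90) and day 5 against day 100 for miR-142-5p (1.84). The methods' t-test, which has fewer arrays behind each spread, was judged here after Benjamini-Hochberg adjustment. The study's methods name no such adjustment, and the unadjusted p-values of the arms are not given here. After adjustment the t-test ended the calls of miR-142-3p on day 5 (1.98) and day 14 (1.33) and of day 5 against day 100 (1.83). It also ended those of miR-142-5p on the same days (1.89, 1.98 and 1.84), but called miR-142-5p between days 14 and 8 (1.42). By that test 26, 40, 40 and 19 miRNAs on days 5, 8, 14 and 100 had an unadjusted p under 0.05 over the syngeneic grafts, and 2, 20, 21 and 1 after Benjamini-Hochberg adjustment. Fitting only the groups compared lost day 5 for both arms (1.98 and 1.89) and day 5 against day 100 for miR-142-5p (1.84), and gained day 8 against day 5 (-1.32) and day 14 against day 8 (1.42) for miR-142-5p. Without scaling, day 8 was called over the syngeneic grafts (1.28 and 1.05) and under day 5 (-1.24 and -1.23), and miR-142-5p on day 14 over day 8 (1.57).

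Normexp, with an offset of 50 on the median spot intensities, moved the median difference of all tested miRNAs from the syngeneic grafts by -0.44 to -0.23. The summed intensities of miR-142-5p reach 202 units at most, and its calls were lost on day 5 (0.29), day 14 (0.33) and against day 100 (0.64 on day 14, 0.59 on day 5), and days 8 (-0.24) and 100 (-0.30) turned below the syngeneic grafts. A floor divided by 4 lost its call on day 5 (2.01) and turned day 100 (-0.51), as did the software's total signal (-0.015). The brightest probe gained day 8 against day 5 (-1.46 and -1.42) and, for miR-142-5p, day 14 against day 8 (1.29), as the mean log2 of the probes did (1.42), and lost day 14 against day 100 for miR-142-3p (1.06). With no filter, which tests more miRNAs, day 14 against day 100 (1.18 and 1.94) and day 5 against day 100 (1.83 and 1.84) were lost. The percentile over all miRNAs lost day 14 against day 100 for miR-142-3p (0.99). MiR-142-5p has no value among miRNAs detected on all 15 arrays.

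Leaving out 1 array gave ranges of 0.95 to 1.74 for miR-142-3p on day 14, 0.98 to 1.38 for day 14 against day 100, 0.27 to 1.06 on day 8 and -0.23 to 0.56 on day 100. For miR-142-5p they were 0.13 to 1.00 on day 8, -0.39 to 0.50 on day 100, 1.38 to 1.47 for day 14 against day 8 and 1.39 to 2.10 for day 5 against day 100. The exact p of the arm difference ranged from 0.0060 to 0.41. It was 0.047 with the brightest probe, 0.027 with the mean log2 of the probes, 0.048 with the median of spots, 0.00018 with normexp and 0.013 over arrays with a detected 5p arm. Under normexp the change on day 14 against the syngeneic grafts had the opposite sign.

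The change in the arm difference was 0.30, 0.32, 1.43 and -0.071 on day 5 with the brightest probe, the mean log2 of probes, normexp and quantile normalization. On day 8 it was 0.26, 0.32, 0.79 and 0.37 with these, -0.030 with the lower floor and with the total signal, and 0.23 without scaling. On day 14 it was 0.84 with normexp and -0.30 with quantile normalization, and on day 100 0.66 with the lower floor. Between days 8 and 5 it was -0.64 with normexp and 0.44 with quantile normalization, and between days 14 and 8 it was 0.049 with normexp. Against day 100, day 14 had -1.42 with the lower floor and 0.44 with normexp, and day 5 had -0.68 and 1.02.

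Counts of called miRNAs moved by over 1.5 times with the slide as a block, to 5 on day 5, 16 on day 100, 0 between days 8 and 5 (29 at an unadjusted limma p under 0.05) and 20 between days 14 and 100, from 26, 32, 2 and 53. With the percentile over all miRNAs they were 10, 26, 31 and 8 on days 5, 8, 14 and 100, 0 between days 14 and 8 (from 6, and 9 at an unadjusted limma p under 0.05), 33 between days 14 and 100, and 11 between days 5 and 100 (from 30). Without scaling they were 7 between days 8 and 5, 2 between days 14 and 8, 34 between days 14 and 100 and 14 between days 5 and 100. Quantile normalization gave 1 between days 8 and 5. Without scaling, the share of calls over the syngeneic grafts that were higher was 100%, 90.2%, 93.8% and 79.2% on days 5, 8, 14 and 100, against 73.1%, 57.1%, 59.6% and 53.1%, and over day 100 it was 94.1% on day 14 and 100% on day 5, against 64.2% and 73.3%. On day 5 it was 90% with the percentile over all miRNAs and 84% with median scaling, and against day 100 the former gave 90.9% on day 5 and 45.5% on day 14. Blocking on slide made this share lower on days 5 and 100, 40% and 12.5%, and higher on day 8 (69.6%) and on day 14 against day 100 (100%).

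Replicate numbers did not pair the arrays (30 same-numbered pairs correlated at -0.65 to 0.45). A replicate block left miR-142-3p at 1.98 on day 5 and changed no call of either arm, and gave 0 called between days 14 and 8 (20 at an unadjusted limma p under 0.05).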
